A study of Rattus norvegicus with 20 samples.

Results

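The vitamin D genes described here are the vitamin D receptor Vdr, its heterodimer partners Rxra and Rxrb, the vitamin D-activating enzyme Cyp27b1, the vitamin D-degrading enzyme Cyp24a1, and the calcium-binding proteins calbindin (Calb1) and calretinin (Calb2). They were chosen by gene name, with the Vdr differences of these same arrays already known, so their values are given as a description. Whether a member's difference passed a p-value threshold is stated below as a label only, and nothing is concluded from it. Of the 7 genes, 6 had a probe set with 1 gene symbol, out of 18166 genes measured. Each was read by 1 probe set, which was 17840592 for Vdr, 17760470 for Rxra, 17756903 for Rxrb, 17779711 for Cyp24a1, 17797389 for Calb1 and 17733466 for Calb2. RefSeq (GRCr8) places Vdr on chromosome 7, Rxra and Cyp24a1 on 3, Rxrb on 20, Calb1 on 5 and Calb2 on 19. Cyp27b1 had no such probe set in the platform annotation used and was not analysed here.

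Expression was measured in INS-1, a rat insulinoma line used as a model of the insulin-secreting beta cell, on 20 Affymetrix Rat Gene arrays, 5 for each of 4 title words. The study asked how the cells respond to islet amyloid polypeptide (IAPP, a peptide that beta cells release with insulin and that can form amyloid) with and without the complement inhibitor C4b-binding protein (C4BP). Titles read C4BP, C4BPD, IAPP or DMSO. From the series description, C4BP most likely stands for C4BP given with IAPP and C4BPD for C4BP without IAPP, a reading that the titles do not spell out. IAPP was applied at 77 µM as monomer and C4BP at 0.6 µM, while the treatment protocols give 300 µg/ml for each. DMSO at 1% was the solvent of IAPP and was also used as the solvent control, and whether the wells with C4BP alone received it is not stated. Every group held the same cell line, kept as 5 clones for 10 passages, and RNA was taken after 10 h. The labels do not say that the replicate number is the clone. A further treatment field names the same treatment as the title for 2 of 10 IAPP and DMSO arrays, and for 3 of 20 overall under the reading above. Titles set the groups throughout, and each direction below depends on them.

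The vitamin D receptor is a nuclear receptor that, once bound by the active hormone calcitriol, pairs with a retinoid X receptor and binds response elements at its target genes. Calcitriol is made by Cyp27b1 and broken down by Cyp24a1, which is itself among the most strongly induced vitamin D targets in kidney and intestine. In beta cells the receptor is known for its link to insulin secretion, and calbindin buffers calcium, the ion that triggers granule release.

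The arrays correlated with each other at 0.985 to 0.996 over all probe sets, and their median intensities lay between 170.7 and 183.4. Differences between groups were read against a threshold over all 18166 genes, an adjusted p of 0.05 (limma, Benjamini-Hochberg). Among 8 beta-cell markers 7 were measured, and their summed intensity was 36917 to 40806 on C4BP arrays, 39618 to 43826 on C4BPD arrays, 37653 to 40272 on IAPP arrays and 40374 to 43793 on DMSO arrays. Of these, 2 (Mafa at -0.26 and Slc2a2 at -0.11 on the log2 scale) were lower in IAPP than in DMSO cells, where 1.97% of all genes were lower. Both calls were lost in some of 33 alternative analyses, which leave out the treatment field, in 11 for Mafa and 22 for Slc2a2. In C4BP against DMSO 3 were lower (those and Slc30a8), where 3.23% of all genes were lower. These calls were lost in 13 of 33 for Mafa, 1 of 33 for Slc2a2 and 4 of 33 for Slc30a8. Slc2a2 alone was lower in C4BP than in C4BPD cells, a call lost in 15 of 33, where 1.62% of all genes were lower. Of 4 measured markers of other islet cell types, 1 was lower in IAPP than in DMSO cells, the glucagon gene Gcg. It had 9400 ± 166 units in IAPP cells and 10304 ± 285 units in DMSO cells (SD, n = 5 each). The log2 difference was -0.13 (limma, adjusted p = 0.0195, lost in 7 of 33), where 1.97% of all genes were lower. Gcg was also higher in C4BPD than in IAPP cells by 0.11 (limma, adjusted p = 0.0456, lost in 22 of 33), where 3.64% of all genes were higher. Sst, Ppy and Ghrl passed in none of the 6 comparisons. They lay at percentiles 42.9, 25.3 and 26.3 of all genes by mean level, and Gcg at 99.8. Markers of acinar and duct cells (6), of fibroblasts and stellate cells (5) and of immune and endothelial cells (4 measured) all lay under the median gene. Of them, 0 passed the limma threshold in any of the 6 comparisons, with at most 2 of a list at an unadjusted p under 0.05. In the same comparisons, 0.606% to 5.96% of all genes passed. The part of these marker differences in the values below was not tested. In these bulk samples, fewer cells of a type and less RNA per cell cannot be told apart.

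Vdr was low in the C4BP and IAPP groups, which are the groups that received IAPP under the reading above. It had intensities of 1238.5, 1183.5, 1131.3, 1085.1 and 1051.2 on the 5 C4BP arrays. The C4BPD arrays gave 2354.6, 2161.0, 1991.6, 2113.5 and 2085.8. On IAPP arrays the values were 1144.2, 1046.7, 1181.4, 936.0 and 1176.3, against 2091.5, 1819.2, 1758.9, 1931.3 and 1806.9 on DMSO arrays. The highest of the 10 C4BP and IAPP values lay below the lowest of the 10 C4BPD and DMSO values, while C4BP overlapped with IAPP and C4BPD with DMSO.

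The mean level of Vdr was 1138 ± 75.1 units in C4BP cells, 2141 ± 134 in C4BPD cells, 1097 ± 105 in IAPP cells and 1882 ± 133 in DMSO cells (SD, n = 5 each). Vdr in IAPP cells was at 58.2% of the DMSO level, a log2 difference of -0.78 (SE 0.067, 95% interval -0.92 to -0.64). It was at 60.5% of the DMSO level in C4BP cells (log2 difference -0.73, interval -0.86 to -0.59) and at 53.1% of the C4BPD level (-0.91, interval -1.05 to -0.77). These comparisons against DMSO share the DMSO arrays. Between cells given IAPP with C4BP and cells given IAPP alone, the log2 difference was 0.06 with an interval of -0.08 to 0.20. Between C4BPD and DMSO cells it was 0.19, with an interval of 0.05 to 0.33 that lies above 0, and it did not pass the threshold. Ordered from high to low, the groups ran C4BPD, DMSO, C4BP and IAPP, with the first pair and the last pair overlapping.

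**Figure D1:**
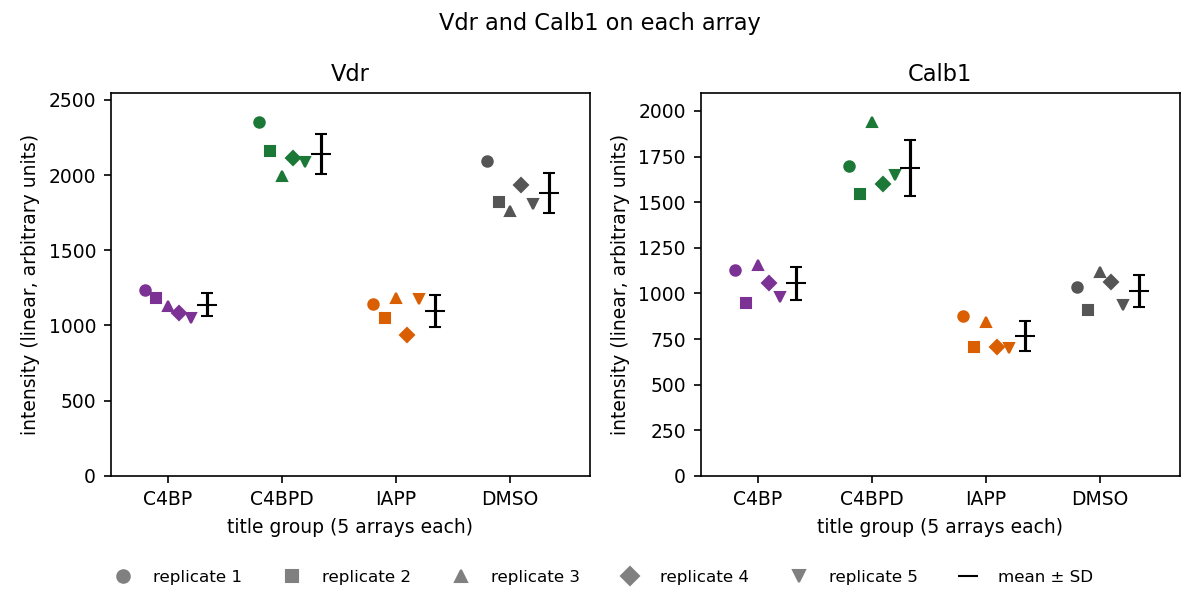
Intensity (linear, arbitrary units) of Vdr and Calb1 on each of the 20 arrays, by title group and with 1 symbol per replicate number; bars show the mean and SD of 5 arrays. For Vdr the C4BP and IAPP arrays sit below all C4BPD and DMSO arrays, and for Calb1 the C4BPD arrays sit above and the IAPP arrays below all others.

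The size of the Vdr difference can be placed among all genes. In IAPP against DMSO, Vdr had the difference of rank 2 from the lowest among 18166 genes. It ranked 9 from the lowest in C4BP against DMSO and 3 from the lowest in C4BP against C4BPD. In C4BPD against IAPP, where the log2 difference was 0.97 (interval 0.83 to 1.11, 1.96-fold), it ranked 8 from the highest. The interaction takes the log2 difference of C4BP from C4BPD and subtracts that of IAPP from DMSO, and so asks whether the IAPP difference changed when C4BP was present. For Vdr it was -0.13 with an interval of -0.33 to 0.07, and 0 of the 6 members passed the limma threshold in it (2 at an unadjusted p under 0.05, Calb1 and Calb2), against 0.0495% of all genes.

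The RefSeq promoter window of Vdr, the 250 bases before its start, is printed because Vdr carries the largest differences against DMSO among these genes when IAPP was given. That of Nr4a1, an immediate early nuclear receptor, is printed because its array pattern was the nearest to that of Vdr, as described further down. Both are on assembly GRCr8, 5′ to 3′ along the gene. In Vdr (chr7:130916758-130917007, minus strand) capitals mark GGGCGG, the GC box. In Nr4a1 (chr7:134259888-134260137, plus strand) capitals mark TGACG, the partial cAMP response element, which appears there as its reverse complement.
Vdr: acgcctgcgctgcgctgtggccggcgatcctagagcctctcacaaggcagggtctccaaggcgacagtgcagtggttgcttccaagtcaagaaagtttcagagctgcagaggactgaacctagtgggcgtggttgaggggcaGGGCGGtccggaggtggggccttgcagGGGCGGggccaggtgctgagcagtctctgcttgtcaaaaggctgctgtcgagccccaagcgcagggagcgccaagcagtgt
Nr4a1: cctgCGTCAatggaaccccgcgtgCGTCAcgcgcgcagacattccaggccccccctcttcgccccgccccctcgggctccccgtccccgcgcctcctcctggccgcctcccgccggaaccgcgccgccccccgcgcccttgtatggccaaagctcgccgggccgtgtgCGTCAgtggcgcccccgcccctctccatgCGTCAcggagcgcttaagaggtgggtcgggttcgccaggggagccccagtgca
The Vdr window held 2 GC boxes, 108 and 81 bases before the start, and none of the other motifs searched on both strands, which were TGACG, the full element TGACGTCA, the nuclear receptor half-site AGGTCA and the TATA box TATAAA. The Nr4a1 window held 4 matches to TGACG, at 246, 226, 82 and 53 bases before the start, and 3 GC boxes. Over 33465 RefSeq windows of the same 250 bases, 30.5% held the GC box, 18.2% the partial element, 1.59% the full element (which contains the partial one), 14.1% the half-site and 12.9% the TATA box. Windows were at hand for 4 of the 7 members, Vdr, Rxra, Rxrb and Cyp27b1. Those of Rxra and Rxrb held 2 GC boxes each, and that of Cyp27b1 held 0 GC boxes and 1 TATA box. A match is a description of letters, and no factor binding was measured here.

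The RXR partners of the receptor had small differences between groups. Rxra, the retinoid X receptor alpha, had intensities of 2017.3, 2086.5, 1958.1, 1953.9 and 2082.7 on C4BP arrays. The C4BPD arrays gave 2021.8, 1806.0, 1800.9, 2015.2 and 1900.7 for it. IAPP arrays gave 1958.0, 1878.0, 1888.1, 1879.9 and 1969.9, and DMSO arrays 1928.4, 1756.3, 1665.7, 1853.2 and 1864.2. C4BP arrays lay above all DMSO arrays, and the remaining pairs of groups overlapped. The Rxra mean was 2020 ± 64.4 in C4BP cells and 1814 ± 103 in DMSO cells (SD, n = 5 each), a log2 difference of 0.16 (interval 0.06 to 0.25, 1.11-fold). This difference passed the threshold and lost it in 16 of 33 alternative analyses. Against DMSO, the Rxra difference was 0.08 in IAPP cells (interval -0.01 to 0.17) and 0.07 in C4BPD cells (interval -0.02 to 0.17).

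Rxrb, the beta form, spanned 686.3 to 824.1 units in C4BP, 706.9 to 916.0 in C4BPD, 722.2 to 824.0 in IAPP and 732.4 to 816.7 in DMSO cells. All 4 groups overlapped. Its 6 log2 differences lay between -0.06 and 0.03, and the one farthest from 0, in C4BP against C4BPD, had an interval of -0.19 to 0.07.

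Cyp24a1, the catabolic enzyme, had 126 ± 13.6 units in C4BP cells, 115 ± 6.96 in C4BPD cells, 123 ± 11.0 in IAPP cells and 126 ± 2.49 in DMSO cells (SD, n = 5 each). On C4BPD arrays its values of 104.6 to 122.9 lay below those of 123.8 to 129.4 on DMSO arrays. The log2 difference was -0.14 with an interval of -0.29 to 0.01, which did not pass the threshold. The other 5 comparisons of Cyp24a1 overlapped, with log2 differences of -0.09 to 0.12. Its intensities, 103.9 to 136.2 over all arrays, lay under the lowest array median of 170.7, and without detection p-values it is not known whether they exceed the background.

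**Figure D2:**
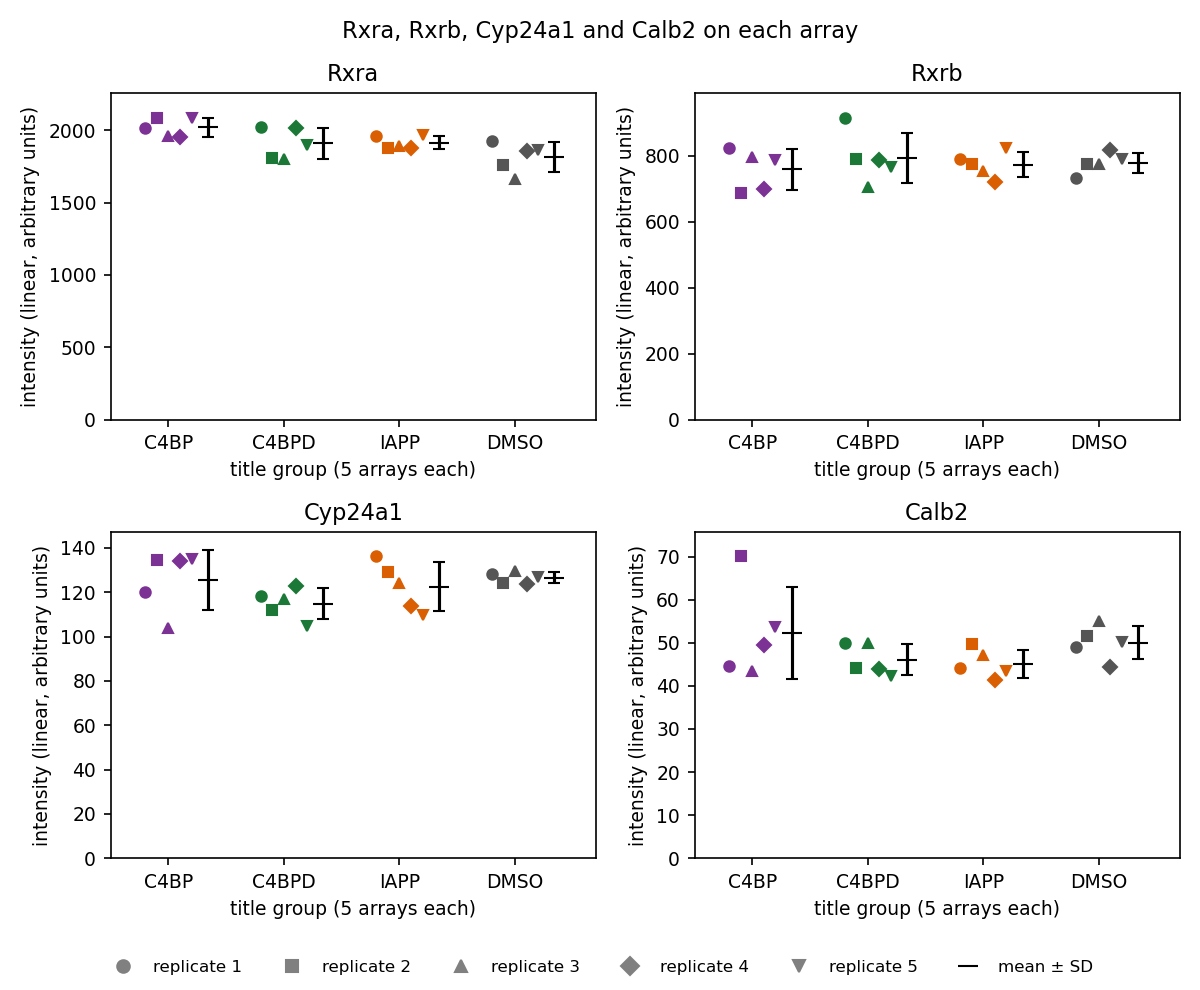
Intensity (linear, arbitrary units) of Rxra, Rxrb, Cyp24a1 and Calb2 on each of the 20 arrays, by title group and with 1 symbol per replicate number; bars show the mean and SD of 5 arrays. Rxra in C4BP cells sits above DMSO cells, Cyp24a1 in C4BPD cells sits just below DMSO cells, and the Rxrb and Calb2 groups overlap.

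Calbindin followed a different order of groups from Vdr. Calb1 had intensities of 1130.8, 949.4, 1157.1, 1059.5 and 982.1 on C4BP arrays and of 1699.0, 1544.2, 1940.4, 1600.6 and 1648.9 on C4BPD arrays. The IAPP arrays gave 873.6, 705.5, 843.1, 706.5 and 703.1, and the DMSO arrays 1036.9, 907.4, 1115.5, 1061.1 and 936.9. C4BPD arrays were above all others, IAPP arrays were below all others, and the C4BP and DMSO arrays overlapped.

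The mean level of Calb1 was 1056 ± 90.4 units in C4BP cells, 1687 ± 153 in C4BPD cells, 766 ± 84.7 in IAPP cells and 1012 ± 87.1 in DMSO cells (SD, n = 5 each). IAPP cells were at 75.6% of the DMSO level (log2 difference -0.40, interval -0.57 to -0.24), past the threshold in 32 of 33 alternative analyses and not without replicate 4 of every group, where the difference was -0.36. C4BPD cells had 1.67 times the DMSO level (0.74, interval 0.57 to 0.90). For C4BP cells the difference from DMSO was 0.06, with an interval of -0.10 to 0.23. Cells given IAPP with C4BP had 1.38 times the Calb1 level of cells given IAPP alone (0.46, interval 0.30 to 0.63) and 62.6% of the C4BPD level (-0.68, interval -0.84 to -0.51). The first of these was not past the threshold without replicate 4 of every group or in a fit of the 2 groups alone. C4BPD cells had 2.20 times the IAPP level (1.14, interval 0.97 to 1.31). Among 18166 genes, the Calb1 difference ranked 61 from the lowest in IAPP against DMSO, 11 from the highest in C4BPD against DMSO, 11 from the highest in C4BP against IAPP and 6 from the highest in C4BPD against IAPP. Its interaction was -0.27 (interval -0.51 to -0.04), which did not pass the threshold.

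Set side by side, IAPP with C4BP against IAPP alone gave a log2 difference of 0.46 for Calb1 and 0.06 for Vdr. C4BPD against DMSO gave 0.74 for Calb1 and 0.19 for Vdr. In IAPP against DMSO the order of size was the other way, at -0.40 for Calb1 and -0.78 for Vdr. The differences between both genes in these values were not tested.

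Calretinin, the relative of calbindin encoded by Calb2, had 52.2 ± 10.7 units in C4BP cells, 46.1 ± 3.67 in C4BPD cells, 45.1 ± 3.25 in IAPP cells and 50.04 ± 3.88 in DMSO cells (SD, n = 5 each). The C4BP spread came with a single high array, replicate 2 at 70.0, where the other 4 gave 43.4 to 53.6. All groups overlapped, and the 6 log2 differences ran from -0.15 to 0.19. At 41.4 to 70.0 units over all arrays, Calb2 too lay under the lowest array median. The Calb2 interaction was 0.31 (interval 0.02 to 0.60), and it did not pass the threshold.

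**Figure D3:**
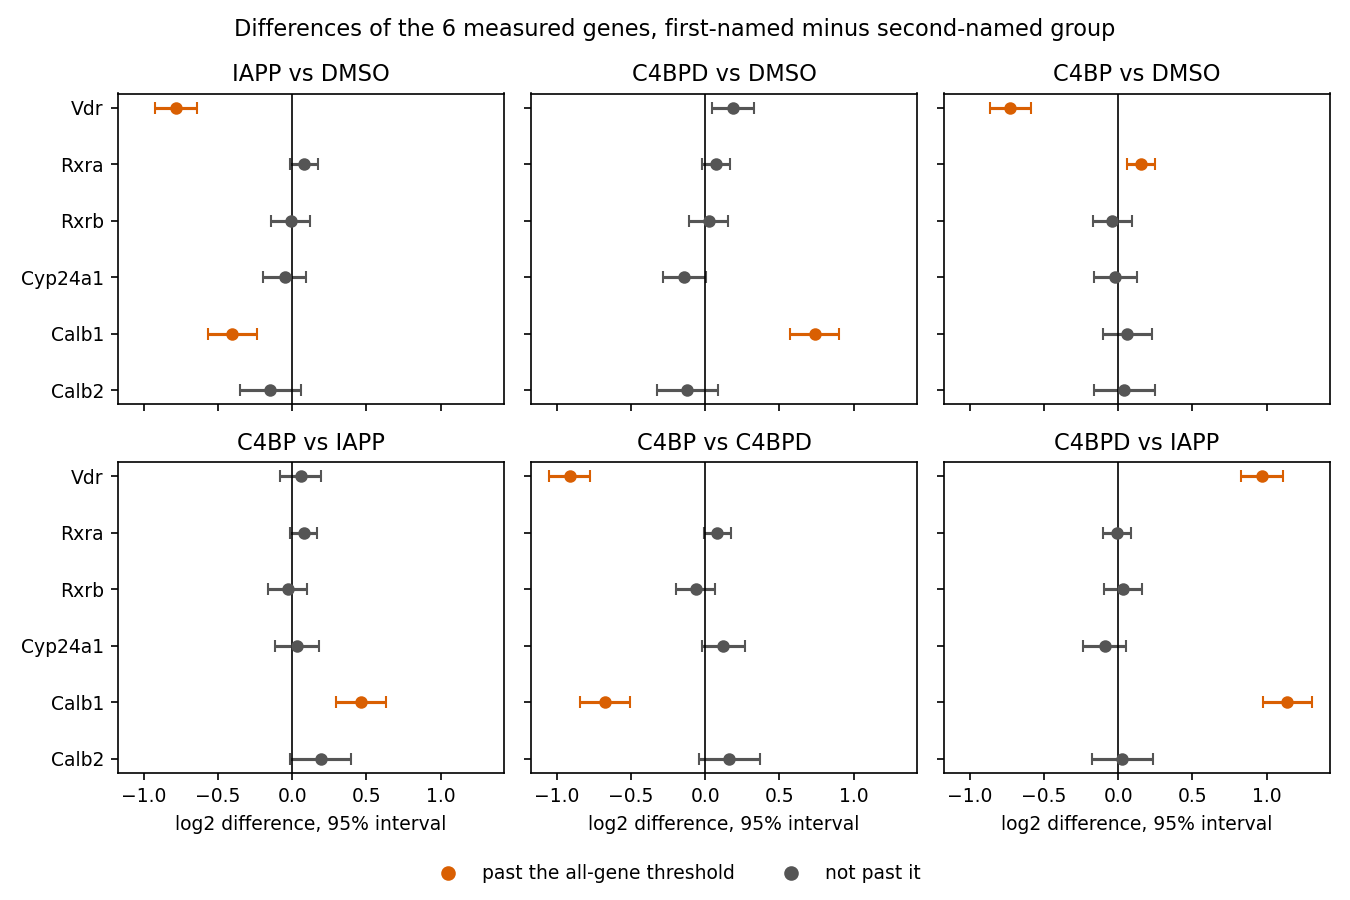
Log2 difference of each of the 6 measured genes in each of the 6 comparisons, the first-named group minus the second-named one; points are differences from the linear model and bars are 95% intervals, in orange where the threshold over all genes was passed. Vdr and Calb1 hold all orange points but 1, which is Rxra in C4BP against DMSO.

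Counted over the 6 measured members, 2 (Vdr and Calb1) were past the threshold and lower in IAPP than in DMSO cells, where 1.97% of all genes were lower and 3.38% passed in either direction, and 1 (Vdr) without replicate 4 of every group. In C4BPD against DMSO 1 was higher (Calb1), with 1.17% of all genes higher and 1.93% in either direction. In C4BP against DMSO 1 was lower (Vdr) and 1 higher (Rxra), with 3.23% of all genes lower, 2.72% higher and 5.96% in either direction. In C4BP against IAPP 1 was higher (Calb1, and 0 without replicate 4 of every group or with those groups alone), with 0.374% of all genes higher and 0.606% in either direction. In C4BP against C4BPD 2 were lower (Vdr and Calb1), with 1.62% of all genes lower and 2.37% in either direction. In C4BPD against IAPP 2 were higher (Vdr and Calb1), with 3.64% of all genes higher and 5.46% in either direction (992 genes, and 1908 with the replicate number as a block). Since the members were chosen with these contrasts known, nothing is read from their share.

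Groups that did not overlap gave nearly the same picture. In IAPP against DMSO 2 members were lower without overlap, as were 2.69% of all genes. In C4BPD against DMSO 1 was higher and 1 lower (Cyp24a1), with 1.99% and 1.83% of all genes. In C4BP against DMSO 1 was higher and 1 lower, with 2.85% and 3.28% of all genes. The shares of all genes were 1.48% higher in C4BP against IAPP, where 1 member was higher, 2.37% lower in C4BP against C4BPD, where 2 were lower, and 4.25% higher in C4BPD against IAPP, where 2 were higher.

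Some of the scatter within groups went with the replicate number. Arrays numbered 1 lay above the group mean of Vdr in 4 of 4 groups, by 0.12 on the log2 scale on average. For Calb1, numbers 1 and 3 lay above the mean in 4 of 4 groups (by 0.09 and 0.16) and numbers 2 and 5 below it in 4 of 4 (-0.13 and -0.09). Taken between arrays of the same number, Vdr was lower in IAPP than in DMSO cells in 5 of 5 pairs (-1.05 to -0.57) and lower in C4BP than in DMSO cells in 5 of 5 (-0.83 to -0.62). It was higher in C4BPD than in DMSO cells in 5 of 5 pairs, by 0.13 to 0.25. Calb1 was lower in IAPP than in DMSO cells in 5 of 5 pairs (-0.59 to -0.25) and higher in C4BP than in IAPP cells in 5 of 5 (0.37 to 0.58). Rxra was higher than DMSO in 5 of 5 pairs in IAPP (0.02 to 0.18), C4BPD (0.03 to 0.12) and C4BP cells (0.06 to 0.25), comparisons that share the DMSO arrays, and higher in C4BP than in IAPP cells in 5 of 5 (0.04 to 0.15). It was higher in 3 of 5 pairs in C4BP against C4BPD and in 2 of 5 in C4BPD against IAPP.

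Genes were next ranked by how closely their 20 log2 values, each gene centred on its own mean, followed those of Vdr, using the root mean square of the differences. The 6 nearest of 18166 genes were Nr4a1 (0.130), Dio2 (0.141), F3 (0.156), Pde7b (0.156), Nr4a2 (0.167) and Cytip (0.172). For scale, the median over all genes was 0.456, and the spread of Vdr about its own mean was 0.440. Nr4a1 and Nr4a2 are orphan nuclear receptors of the immediate early class, Dio2 is the deiodinase that activates thyroid hormone, F3 is tissue factor, Pde7b degrades cAMP, and Cytip is a scaffold that binds cytohesin. Nothing follows from likeness of pattern about shared control.

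Nr4a1 averaged 688 ± 112 units in C4BP cells, 1374 ± 161 in C4BPD cells, 654 ± 80.2 in IAPP cells and 1174 ± 129 in DMSO cells (SD, n = 5 each). Like Vdr, it was low in both IAPP-treated groups, with log2 differences from DMSO of -0.85 in IAPP, 0.23 in C4BPD and -0.78 in C4BP cells. Dio2 differed from DMSO by -0.70 in IAPP, 0.20 in C4BPD and -0.46 in C4BP cells. F3 differed by -0.63, 0.02 and -0.69 in the same order of groups. Pde7b differed by -0.73, -0.01 and -0.51 in that order, so that F3 and Pde7b in C4BPD cells lay close to DMSO. Cytip, at -0.50, 0.41 and -0.44, had the largest C4BPD difference among these 6 genes.

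The 3 genes nearest to the mirror image of Vdr were Uap1l1 (0.182), Eci2 (0.214) and Fabp3 (0.220). Uap1l1 is related to an enzyme of amino sugar activation, Eci2 is an enzyme of unsaturated fatty acid oxidation, and Fabp3 carries fatty acids. Fabp3 averaged 1087 ± 109 units in C4BP cells, 732 ± 72.2 in C4BPD cells, 1071 ± 21.9 in IAPP cells and 681 ± 49.3 in DMSO cells (SD, n = 5 each). Its log2 differences from DMSO were 0.66 in IAPP, 0.10 in C4BPD and 0.67 in C4BP cells. These 9 genes were picked for their pattern, so no test is given for it.

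**Figure D4:**
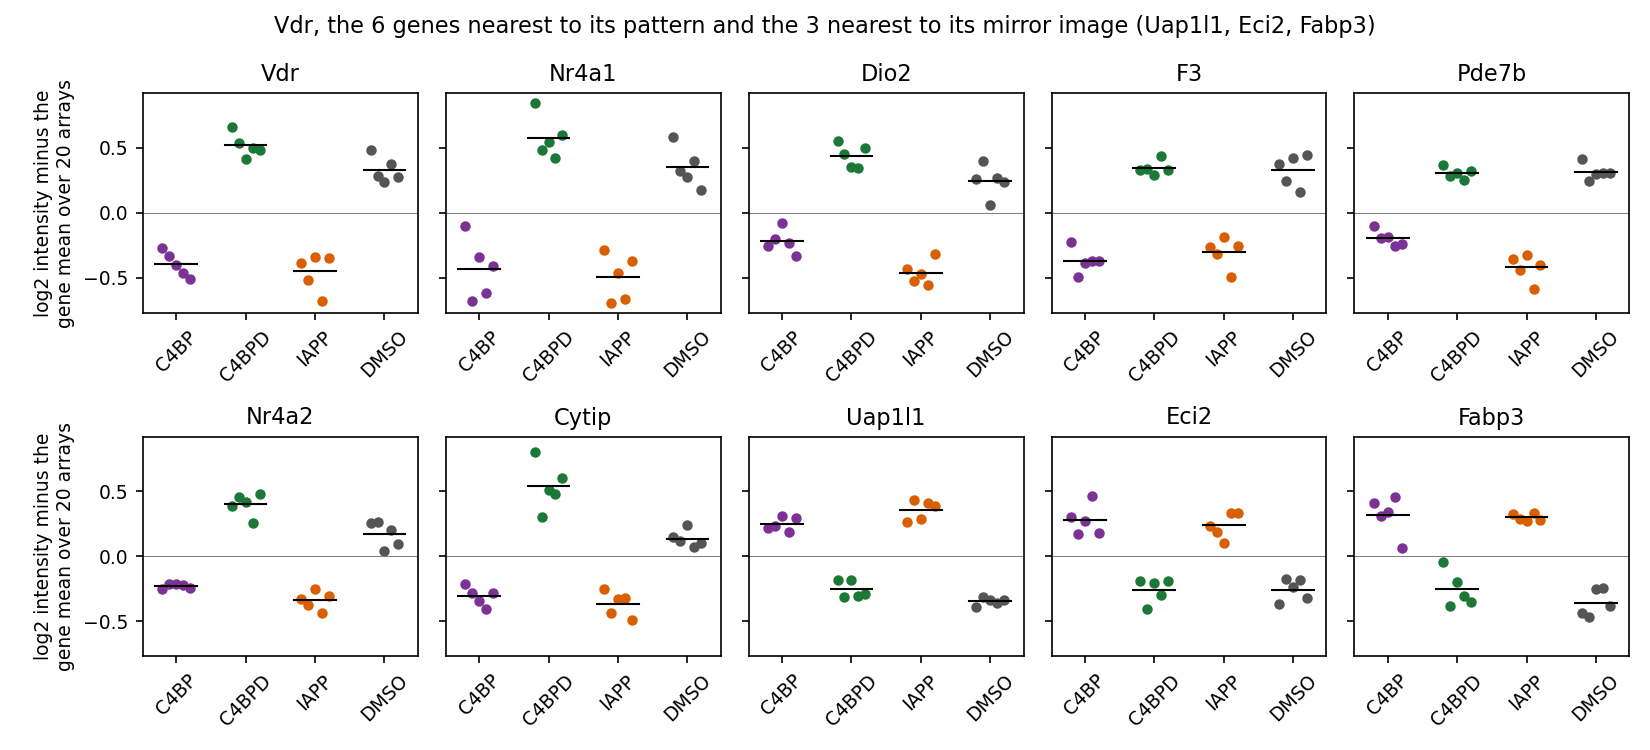
Log2 intensity minus the gene's mean over 20 arrays for Vdr, the 6 genes nearest to it and the 3 nearest to its mirror image, by title group; points are arrays and lines are means of 5. The first 7 genes are low in C4BP and IAPP cells and high in C4BPD and DMSO cells, and Uap1l1, Eci2 and Fabp3 run the other way.

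The rest of the vitamin D system was read from lists of genes. Like the members, these lists were chosen with earlier results of these data known. Their p-values and counts are thus given as a description. Among 13 measured genes of vitamin D synthesis, transport and breakdown, 0 passed the limma threshold in IAPP against DMSO (2 at an unadjusted p under 0.05). Of all genes, 3.38% passed there. The list's median log2 difference was -0.0241, beside 0.00178 over all genes. Only 3 of the 13 lay above the median gene, so low signal limits what the count of 0 can say. Dhcr7, which draws on the same precursor as vitamin D to make cholesterol, fell by 0.26 on the log2 scale in C4BPD cells (2307 ± 79.3 units) relative to DMSO cells (2774 ± 158 units; SD, n = 5 each; limma, adjusted p = 0.00328). It also fell by 0.18 in C4BP cells relative to DMSO (adjusted p = 0.0223, lost in 9 of 33 alternative analyses). Cyp3a2, a broad steroid hydroxylase, was 0.38 higher in C4BPD than in DMSO cells (adjusted p = 0.0357, lost in 15 of 32) at 18.5 ± 1.13 against 14.3 ± 1.78 units (SD, n = 5 each), under the array medians and with DMSO replicate 2 low at 11.1 units. Gc, the plasma carrier of vitamin D, named after its values were seen, had 9653 ± 474 units in C4BP, 10178 ± 254 in C4BPD, 9830 ± 317 in IAPP and 10012 ± 469 in DMSO cells and passed the threshold in no comparison.

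Of 13 measured receptor coregulators, 0 passed with limma against DMSO in any of the 3 comparisons (1 at an unadjusted p under 0.05 in IAPP and 0 in the others). The shares of all genes that passed were 3.38% in IAPP, 1.93% in C4BPD and 5.96% in C4BP against DMSO. The list medians were 0.00735 for IAPP, 0.0107 for C4BPD and 0.00405 for C4BP cells. The corepressor subunit Tbl1xr1 was 0.14 higher in C4BPD than in IAPP cells (limma, adjusted p = 0.0498, lost in 23 of 33 alternative analyses). The 16 other partners of RXR, all measured, had 2 lower in IAPP than in DMSO cells, the receptors Nr4a1 and Nr4a2 already named, where 1.97% of all genes were lower. Both were also lower in C4BP than in DMSO cells, where 3.23% of all genes were lower. There 1 of the list was higher, as were 2.72% of all genes. In C4BPD against DMSO 2 were higher, namely Nr4a2 and Rxrg, where 1.17% of all genes were higher. The Nr4a2 difference was 0.23, a call lost in 9 of 33 alternative analyses. Nr4a1 and Nr4a2 were picked above for their likeness to Vdr, so nothing is read from their calls here. Rxrg, the third RXR gene, was 0.31 higher in C4BP cells (175 ± 11.3 units) than in DMSO cells (141 ± 6.47 units; SD, n = 5 each; limma, adjusted p = 0.00156, kept in 32 of 32 alternative analyses). It was 0.23 higher in C4BPD than in DMSO cells (adjusted p = 0.0442, lost in 19 of 32). Nr1h4, the bile acid receptor FXR, was lower in C4BPD than in IAPP cells, at 124 ± 8.87 against 146 ± 10.1 units (SD, n = 5 each; log2 difference -0.24; limma, adjusted p = 0.0346, lost in 12 of 32), with C4BPD replicate 5 high at 139 units. Rxrg and Nr1h4 are dim, at percentiles 35.3 and 31.0 of all genes by mean level, and the filter on dim genes dropped both. The list's median in IAPP against DMSO was 0.0139.

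Known vitamin D targets other than the members were mostly dim, with 7 of 21 measured genes above the median gene. Low signal limits what could be measured of the rest. With limma, 0 of the 21 passed in IAPP against DMSO, where the median log2 difference was 0.0035 and 3.38% of all genes passed. In C4BPD against DMSO 0 passed, where 1.93% of all genes passed (3 of the list at an unadjusted p under 0.05 in each comparison). At such shares, 0 of 21 says little about the list. In C4BP against DMSO 2 were lower, where 3.23% of all genes were lower. Casr, the calcium-sensing receptor, had 506 ± 43.2 units in C4BP cells and 651 ± 81.5 units in DMSO cells (SD, n = 5 each), a log2 difference of -0.36 (limma, adjusted p = 0.00766, kept in 32 of 33 alternative analyses). In IAPP cells it had 530 ± 31.9 units (SD, n = 5), a log2 difference from DMSO of -0.29 that did not pass (limma, adjusted p = 0.0513), although the groups did not overlap. Atp2b1, a plasma membrane calcium pump, differed by -0.13 (adjusted p = 0.0379, lost in 14 of 33). Txnip, which binds thioredoxin, was lower in C4BP than in IAPP cells, at 2600 ± 63.8 against 3389 ± 273 units (SD, n = 5 each; log2 difference -0.38; limma, adjusted p = 0.0426, lost in 21 of 33). Igfbp3, which binds insulin-like growth factors, was lower in C4BPD than in IAPP cells, at 460 ± 31.3 against 528 ± 32.6 units (SD, n = 5 each; log2 difference -0.20; limma, adjusted p = 0.0445, lost in 20 of 33). S100g, an intestinal calcium-binding protein, stayed between 124.7 and 164.0 units on all arrays and passed in no comparison. It is named here after its values were seen.

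Among 18 measured calcium buffers and EF-hand sensors apart from the calbindins, 3 fell in IAPP relative to DMSO cells, 1 in C4BPD relative to DMSO and 3 in C4BP relative to DMSO, with 0 higher in any of them. The shares of all genes past the threshold and lower were 1.97% in IAPP, 0.765% in C4BPD and 3.23% in C4BP against DMSO. Vsnl1, the neuronal calcium sensor visinin-like protein, had 1135 ± 58.8 units in C4BP, 1328 ± 49.8 in C4BPD, 1161 ± 125 in IAPP and 1468 ± 82.1 in DMSO cells (SD, n = 5 each), with C4BPD replicate 3 high at 1415 units. It fell by 0.34 in IAPP cells (limma, adjusted p = 0.00204) and by 0.37 in C4BP cells (adjusted p = 0.00049) relative to DMSO, kept in 33 of 33 alternative analyses each. Hpca, hippocalcin, was the gene of this list that was lower than DMSO in all 3 comparisons, with log2 differences of -0.28 in IAPP (limma, adjusted p = 0.0237, lost in 10 of 33), -0.34 in C4BPD (adjusted p = 0.01, lost in 3 of 33) and -0.48 in C4BP cells (adjusted p = 9.86e-05). Necab2, a neuronal EF-hand protein, had 493 ± 26.4 units in IAPP and 597 ± 29.9 in DMSO cells (SD, n = 5 each; log2 difference -0.28; limma, adjusted p = 0.0021). Each list median lay between -0.0505 and -0.0269 against DMSO, so most of these genes differed little. In C4BP against IAPP 0 of the 18 were past the limma threshold (1 at an unadjusted p under 0.05), where 0.606% of all genes passed. At that share, 0 of 18 does not set Calb1 apart from this list, and the contrast between genes was not tested.

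The last list held transcription factors of signals known to act on Vdr transcription, such as cAMP and glucocorticoids, with 10 of 11 measured. Crem, the cAMP-responsive modulator, had 698 ± 53.3 units in C4BP, 870 ± 39.2 in C4BPD, 680 ± 44.3 in IAPP and 866 ± 41.6 in DMSO cells (SD, n = 5 each). It fell by 0.35 in IAPP cells (limma, adjusted p = 0.000614) and by 0.31 in C4BP cells (adjusted p = 0.000861) relative to DMSO, and its values in the groups given IAPP were the low ones, as for Vdr. Nr3c1, the glucocorticoid receptor, had 2650 ± 109 units in C4BP, 2869 ± 123 in C4BPD, 2247 ± 60.1 in IAPP and 2589 ± 48.7 in DMSO cells (SD, n = 5 each). Its order of groups was that of Calb1, with IAPP lowest and C4BPD highest. Nr3c1 fell by 0.20 in IAPP relative to DMSO cells (limma, adjusted p = 0.00257). It was 0.24 higher in C4BP than in IAPP cells (limma, adjusted p = 0.00282, lost in 2 of 33 alternative analyses). In C4BPD cells it was 0.15 higher than in DMSO cells (limma, adjusted p = 0.0468, lost in 23 of 33). Cebpa, a factor of myeloid and fat cell differentiation, was lower in C4BPD than in IAPP cells (log2 difference -0.19; limma, adjusted p = 0.0396, lost in 11 of 32 alternative analyses). The list's median log2 difference in IAPP against DMSO was 0.0194, so the fall of Crem and Nr3c1 was not shared by most of its genes. Whether Crem or Nr3c1 acts on Vdr or Calb1 in these cells was not tested.

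**Figure D5:**
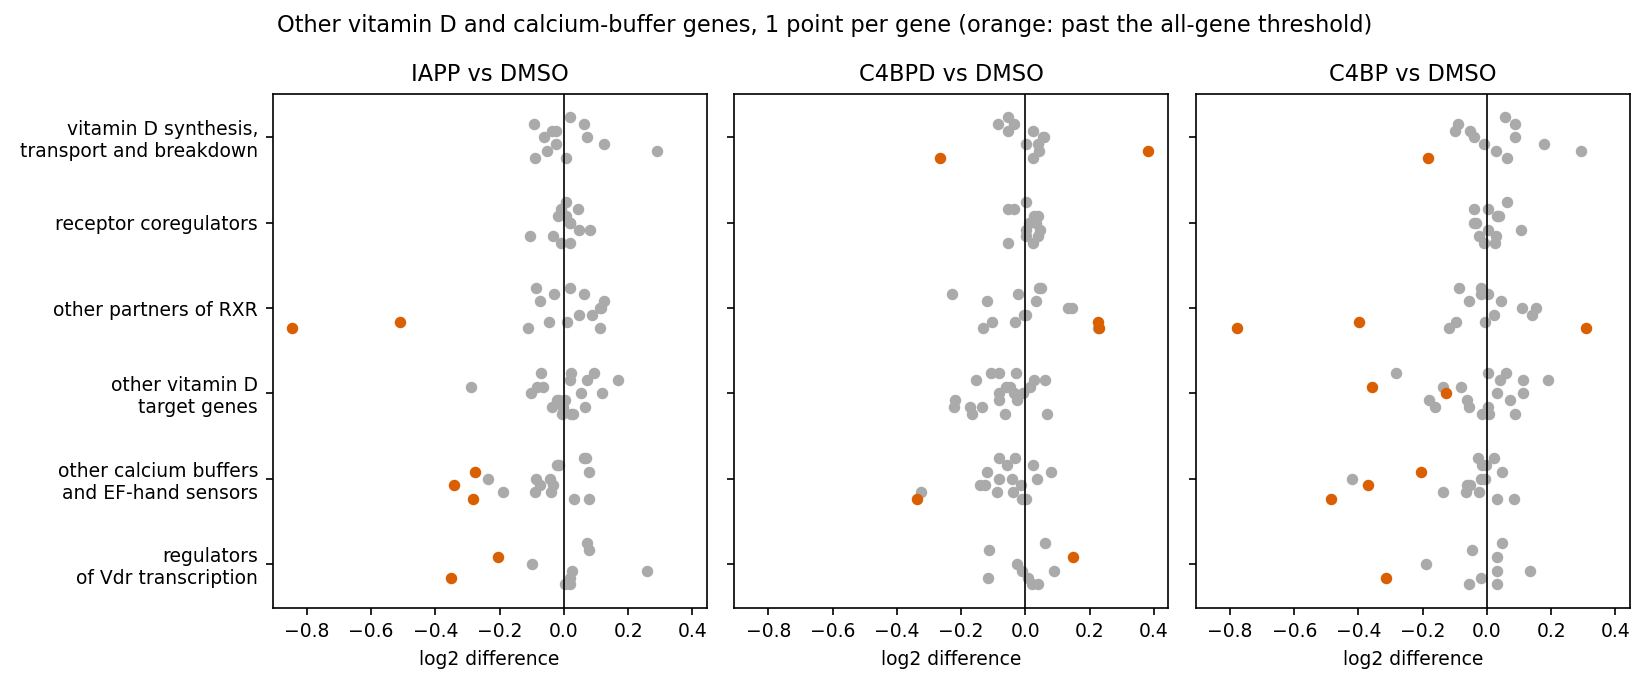
Log2 difference from DMSO of each measured gene of the 6 lists in IAPP, C4BPD and C4BP cells, 1 point per gene and orange where the threshold over all genes was passed. Most genes lie near 0, and the lowest point in both IAPP and C4BP cells is Nr4a1.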

How the data were processed

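Total RNA from INS-1 cells was measured on 20 Affymetrix Rat Gene arrays in 4 title groups of 5. The deposited values are probe-set intensities on a linear scale, which the authors had already normalized and summarized. The submitters' processing notes name Affymetrix Expression Console, and the sources used here state neither its version nor the algorithm nor a genome build. Array number limits the precision.

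Of 36685 probe sets, 190 controls were left out. Each gene took its brightest probe set with 1 symbol, for 18166 genes. Log2 intensities were fitted with limma 3.58.1 in R 4.3.3 as 4 group means (16 residual degrees of freedom), two-sided, with Benjamini-Hochberg adjustment over all genes at 0.05. No filter was set on dim genes. The labels tie no array to a named clone, so p-values measure the spread between these arrays, which may be partly technical.

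Members, lists and the rule for named genes were chosen with earlier results of these data known. The rule names all members, up to 4 genes past the threshold per list with the smallest F-test p, the 6 genes nearest to Vdr and 3 nearest to its mirror image, and beta-cell markers. All 5 same-numbered pairs correlated over 0.1 in C4BPD against IAPP (0.152 to 0.305), and 2 to 4 of 5 did elsewhere. A rule of every pair over 0.1 for treating numbers as pairs was thus met in that comparison alone. The main fit nevertheless held no pairing in any comparison, so its intervals and calls for C4BPD against IAPP ignore it. The replicate number as a block was run as an alternative. The median correlation was highest in C4BP against IAPP (0.318), and no label states a pairing. The 33 alternatives were array centring, quantile normalization, all probe sets, a filter on dim genes and fits of the compared groups alone. They also took the replicate number as a block, array weights, limma's trend and robust options, and leaving out single arrays or numbers. Genes dropped by the filter on dim genes have 32. Groups from the treatment field were a further run that these tallies leave out. RefSeq windows on GRCr8 gave the promoter letters. The fit was tested on simulated data with independent noise on each array, which does not cover the correlation between same-numbered arrays.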

Additional observations from a re-analysis of the deposited data

Results flagged for a closer look

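Among 30 genes in 4 groups, 6 of 120 sets of 5 arrays held 1 array far from the other 4, which is 1 in 20, the share that chance gives. No member of the vitamin D set was among them. Each value is the array's gap to its nearest neighbour divided by the range of the 5 arrays, against a critical value of 0.71. Vsnl1 in C4BPD cells had replicate 3 high at 1415 units, with the others at 1289 to 1321 (0.738). Casr in C4BPD cells had replicate 3 low at 537 units, with the others at 638 to 680 (0.734). Txnip in C4BPD cells also had replicate 3 low, at 2545 units beside 3041 to 3198 (0.779). Nr1h4, the bile acid receptor FXR, had replicate 5 of C4BPD high at 139 units beside 117 to 123 (0.727). Igfbp3 in C4BP cells had replicate 5 low at 469 units beside 532 to 554 (0.761). Cyp3a2 in DMSO cells had replicate 2 low at 11.1 units beside 14.5 to 15.5 (0.793).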

How the results depend on the processing

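Leaving aside the treatment field, every called Vdr difference kept its direction and its call in 33 of 33 alternatives, at -0.83 to -0.72 in IAPP against DMSO. Vdr was chosen with these differences known, so their stability is a description only. With the replicate number as a replicate block, the count of members past the threshold was the same in each comparison, for example 2 in C4BPD against IAPP, and the count of all genes became 1133 in IAPP against DMSO, 797 in C4BPD against DMSO, 1884 in C4BP against DMSO, 352 in C4BP against IAPP and 958 in C4BP against C4BPD (without the block 614, 351, 1082, 110 and 431). In these 5 comparisons 3 to 8 of 10 arrays correlated best with their own number, and in C4BPD against IAPP 9 of 10 did. In C4BP against DMSO the count of 2 members became 1, by the loss of Rxra, with arrays centred, with all probe sets and with the compared groups alone, and ran from 1 to 2 when single arrays or numbers were left out. In C4BP against IAPP it became 0 with the compared groups alone and ran from 0 to 1 without single numbers, Calb1 being lost without replicate 4. In IAPP against DMSO it ran from 1 to 2, Calb1 at -0.36 without replicate 4. Grouping by the treatment field left 0 members past the threshold in every comparison and 0 genes (limma). From 426 to 929 genes, 2.35% to 5.11% of all genes, had an unadjusted p under 0.05. This grouping turned Vdr to 0.26 in IAPP against DMSO, 0.14 in C4BP against DMSO, 0.17 in C4BP against C4BPD and -0.29 in C4BPD against IAPP. Calb1 turned to 0.037 in IAPP against DMSO, -0.30 in C4BPD against DMSO, -0.28 in C4BP against IAPP, 0.057 in C4BP against C4BPD and -0.34 in C4BPD against IAPP, and Rxra to -0.0077 in C4BP against DMSO. Which field is right was not tested. The filter on dim genes dropped Calb2 and Cyp24a1, whose low signal limits what could be measured of them.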
